A study of Mus musculus with 416 samples.

Results

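The Rims1-Adgrb3 domain is a 4-Mb stretch of mouse chromosome 1, from 22 to 26 Mb of build GRCm38, that replicated relatively earlier at the 8-cell stage in embryos given an siRNA against Rif1 than in embryos given a control siRNA. It was followed in 200 bins of 50 kb between 19 and 29 Mb, out of 46015 such bins of the autosomes, and 80 of the 200 lie in the domain itself. A bin was used where each of the 6 groups had 10 or more measured cells, a minimum that no bin of the interval failed. The interval was chosen because its 1-Mb windows had high shifts at the 8-cell stage, so its 8-cell values are given as a description and support nothing by themselves.

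Replication states were measured in single blastomeres of the genotype (C57BL/6J xCBA) x DBA/2J. Zygotes received 20 µM of the Rif1 siRNA (siRif1) or of the control siRNA (siCont) by injection 17 to 18 h after hCG, and embryos were grown to the 4-cell, 8-cell or morula stage. Tables held 51 siRif1 and 49 siCont cells at the 4-cell stage, 50 siRif1 and 60 siCont cells at the 8-cell stage, and 45 siRif1 and 44 siCont cells at the morula stage. Each treatment was 1 siRNA, the labels name no embryo or litter for a cell, and the amount of RIF1 protein left was not analysed here.

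In each S phase, DNA is copied in domains with a set order. Gene-rich, open chromatin usually replicates early, whereas gene-poor stretches and long, silent neuronal genes usually replicate late. RIF1 is a chromatin protein that binds late domains and brings protein phosphatase 1 to them, which counters the kinase that activates replication origins.

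Both named genes are long genes of the nervous system and lie toward opposite ends of the domain. Rims1 (gene ID 116837, chr1:22285972-22806158, minus strand, 520.2 kb) encodes a scaffold protein of the presynaptic active zone. Adgrb3 (gene ID 210933, chr1:25067476-25834772, minus strand, 767.3 kb) encodes an adhesion G protein-coupled receptor that binds C1q-like proteins at synapses. The 5′ end of Rims1 thus faces the middle of the domain, and the 5′ end of Adgrb3 faces away from it. The stretch from 23 to 25 Mb, called the centre here, holds shorter genes such as Smap1, Sdhaf4, Col9a1 and Lmbrd1.

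The promoters of both genes are shown because they fix where each gene begins relative to the timing profile. The RefSeq sequences of GRCm38.p6 run from 250 bases before to 50 bases after the annotated start, 5′ to 3′ on the minus strand, with every CG dinucleotide in capitals. CG reads the same on both strands. The Rims1 sequence is chr1:22806109-22806408 and the Adgrb3 sequence is chr1:25829658-25829957.
Rims1: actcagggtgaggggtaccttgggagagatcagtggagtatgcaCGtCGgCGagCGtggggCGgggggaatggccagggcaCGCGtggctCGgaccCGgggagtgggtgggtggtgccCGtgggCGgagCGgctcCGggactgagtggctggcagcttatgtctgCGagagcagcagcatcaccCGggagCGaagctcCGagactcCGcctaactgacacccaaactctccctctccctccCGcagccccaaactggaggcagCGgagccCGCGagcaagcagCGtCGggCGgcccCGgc
Adgrb3: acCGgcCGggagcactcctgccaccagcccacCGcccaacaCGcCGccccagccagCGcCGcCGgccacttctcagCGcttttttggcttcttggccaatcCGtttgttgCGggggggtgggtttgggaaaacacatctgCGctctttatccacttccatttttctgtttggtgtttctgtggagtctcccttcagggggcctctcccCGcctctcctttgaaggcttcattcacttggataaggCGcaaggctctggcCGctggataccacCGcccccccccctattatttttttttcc

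The Rims1 promoter held 26 CG dinucleotides, and 16.9% of 32851 promoters in the same table held at least as many. The Adgrb3 promoter held 16, and 33% of promoters held at least as many. The median promoter held 7. The table's start of Adgrb3 lies slightly inside the upstream end of its gene record. Both genes therefore start in CG-rich sequence, although their bodies were late in control cells.

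The centre also holds a pair of microRNA genes on its Rims1 side, Mir30a and Mir30c-2. Their 5p products are shown because they share a seed (bases 2 to 8, in capitals) and lie in a single 50-kb bin, so they share 1 timing value. The first lies at chr1:23272274-23272295 and the second at chr1:23291714-23291736, both on the plus strand.
mmu-miR-30a-5p: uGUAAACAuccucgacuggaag
mmu-miR-30c-5p: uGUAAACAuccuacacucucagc

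For each bin and group, the replicated share is the percent of cells that had copied the bin. Since progress through S phase was not the same in all groups, the mean over all used bins of a group was subtracted from its shares, and the result, the centred share, is in points. The shift is the centred share in siRif1 minus that in siCont cells, and a positive shift is called earlier. With no embryo named for any cell, a group is 1 sample here and no p-values are given. Intervals on counts of cells are exact 95% Clopper-Pearson intervals, which cover counting error only. All 200 bins were measured in every cell of every group. The median cell had replicated 51.1, 43.2 and 46.8% of its bins in siRif1 and 42.8, 48.3 and 47.5% in siCont groups at the 4-cell, 8-cell and morula stages. Read depth per cell is unknown.

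In control cells the centre of the domain was near the genome mean and earlier than its late flanks. This contrast was larger at later stages. The Rims1 body (12 bins) had a centred share of -14.9 points at the 4-cell, -20.6 points at the 8-cell and -27.6 points at the morula stage. The Adgrb3 body (16 bins) had -4.45, -16.9 and -26.4 points at the same stages. The centre (40 bins) had -0.981, 5.30 and 6.46 points. The centre thus stood above Rims1 by 13.9, 25.9 and 34.1 points and above Adgrb3 by 3.47, 22.2 and 32.8 points.

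In siRif1 cells the flanks stayed closer to the centre at the 8-cell and morula stages, at which shares over all autosomal bins were also less spread. The centre stood above Rims1 by 9.89 points at the 4-cell, 10.95 points at the 8-cell and 15.9 points at the morula stage. It stood above Adgrb3 by 4.41, 6.08 and 8.69 points. At the 4-cell stage the Adgrb3 contrast was about as small in both treatments.

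**Figure D1:**
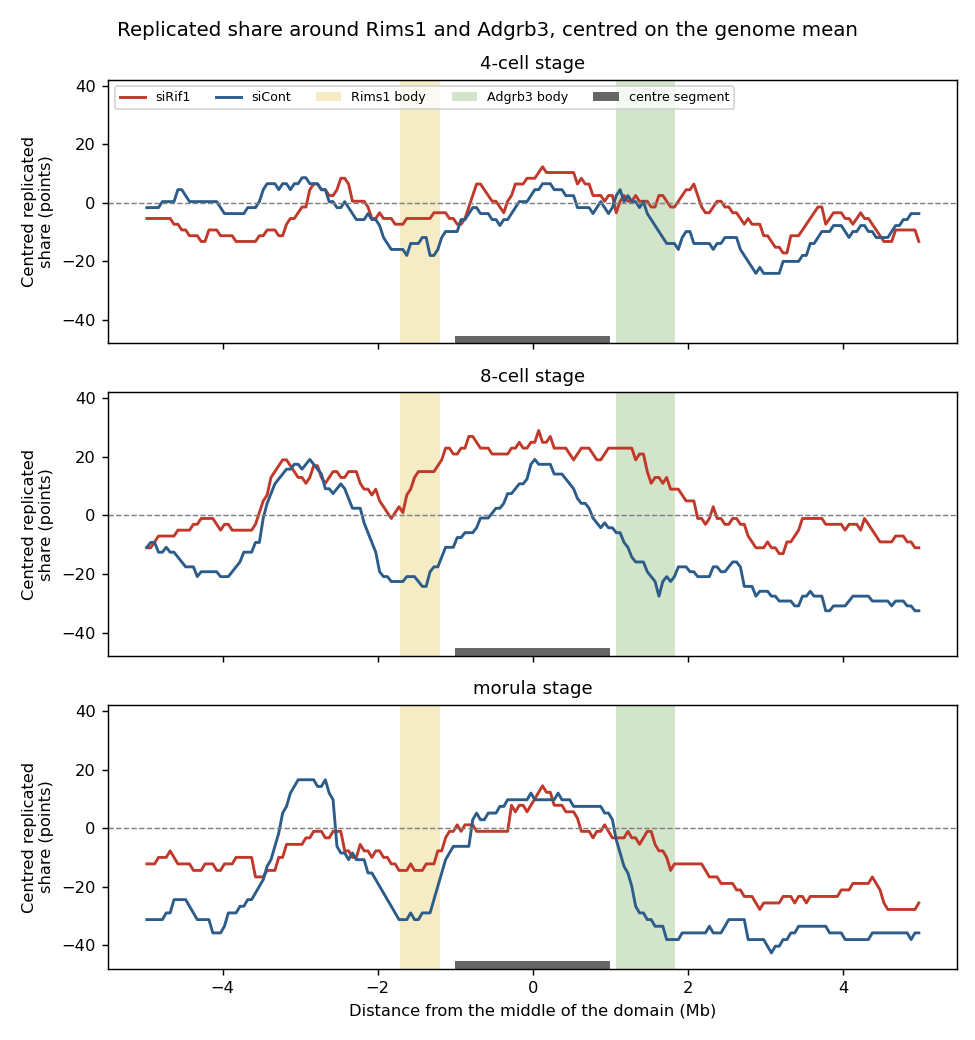
Centred replicated share (points from the mean over all used autosomal bins, vertical axis) of each 50-kb bin against its distance from the middle of the domain (Mb), with 1 panel per stage; red lines are siRif1 cells, blue lines siCont cells, shaded bands the bodies of Rims1 (left) and Adgrb3 (right), and the grey bar the centre segment. At the 8-cell stage the siRif1 line lies above 0 in all but 1 bin of the domain. The siCont line there has a mean of -20.6 points over Rims1 and -16.9 points over Adgrb3.

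In 8-cell embryos the whole domain lay earlier in siRif1 cells. Its mean centred share was 18.1 points in siRif1 and -6.26 points in siCont cells, a shift of 24.4 points. All 80 bins had positive shifts of 5.85 to 40.5 points, while 52.7% of all 1-Mb windows had positive 8-cell shifts. Rims1 had 11.98 points in siRif1 and -20.6 points in siCont cells (shift 32.6 points). Adgrb3 had 16.9 points in siRif1 and -16.9 points in siCont cells (shift 33.8 points). The centre had 22.9 points in siRif1 and 5.30 points in siCont cells, a shift of 17.6 points, so the flanks moved more than the centre.

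Shifts of 20 points or more were found in 56 of the 80 domain bins at this stage, against 3.95% of all bins. They took in all 12 bins of Rims1, all 16 of Adgrb3 and 16 of the 40 bins of the centre. No domain bin was lower by 20 points or more, against 6.43% of all bins. Because the interval was chosen on this contrast, these counts only describe it. Among 2126 overlapping stretches of 4 neighbouring 1-Mb windows, the stretch from 22 to 26 Mb ranked 1 in 8-cell shift.

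Late bins as a class also had positive 8-cell shifts, and the domain bins lay above their class. The comparison is a description, since the interval was chosen on this shift. Bins were ranked into 5 equal classes by the mean centred share of control cells at the other stages. The latest class had a mean shift of 10.6 points, and the 21 domain bins in it had 30.8 points. In the next class the mean was 5.58 points and the 19 domain bins had 31.7 points. In the middle class the mean was -0.745 points and the 35 domain bins had 18.9 points. The 5 remaining domain bins had 8.18 points, in a class with a mean of -5.33 points.

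The bin with the highest 8-cell shift of the domain lay in the Adgrb3 body, at chr1:25600001-25650000. It was replicated in 28 of 50 siRif1 cells (56%, interval 41.3 to 70.01%) and in 13 of 60 siCont cells (21.7%, interval 12.1 to 34.2%). The bin with the lowest shift, chr1:24000001-24050000, overlaps Sdhaf4, which encodes an assembly factor of succinate dehydrogenase. It was replicated in 34 of 50 siRif1 cells (68%, interval 53.3 to 80.5%) and 41 of 60 siCont cells (68.3%, interval 55.04 to 79.7%). Uncentred shares of that bin were therefore almost equal, while the genome mean was 43.02% in the siRif1 and 49.2% in the siCont group.

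The order of 1-Mb windows within each group shows how far the region moved. Of 2317 windows, the one from 23 to 24 Mb ranked 74 from the earliest in 8-cell siRif1 cells and 1141 in siCont cells. The window from 24 to 25 Mb ranked 78 in siRif1 and 893 in siCont cells. The window from 22 to 23 Mb ranked 523 in siRif1 and 1862 in siCont cells. The window from 25 to 26 Mb ranked 304 in siRif1 and 1782 in siCont cells. In siRif1 cells the centre was thus among the earliest megabases of the autosomes.

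The early shift did not stop at 26 Mb. The gene-poor windows from 26 to 27, 27 to 28 and 28 to 29 Mb had 8-cell shifts of 17.8, 23.6 and 22.8 points, but they remained below the genome mean in siRif1 cells, at -2.92, -5.42 and -6.62 points. In siCont cells they had -20.7, -29.0 and -29.5 points. On the other side, the windows from 19 to 20, 20 to 21 and 21 to 22 Mb had smaller 8-cell shifts of 10.3, 6.86 and 5.80 points. All 10 windows from 19 to 29 Mb had positive 8-cell shifts, as had 52.7% of all windows.

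**Figure D2:**
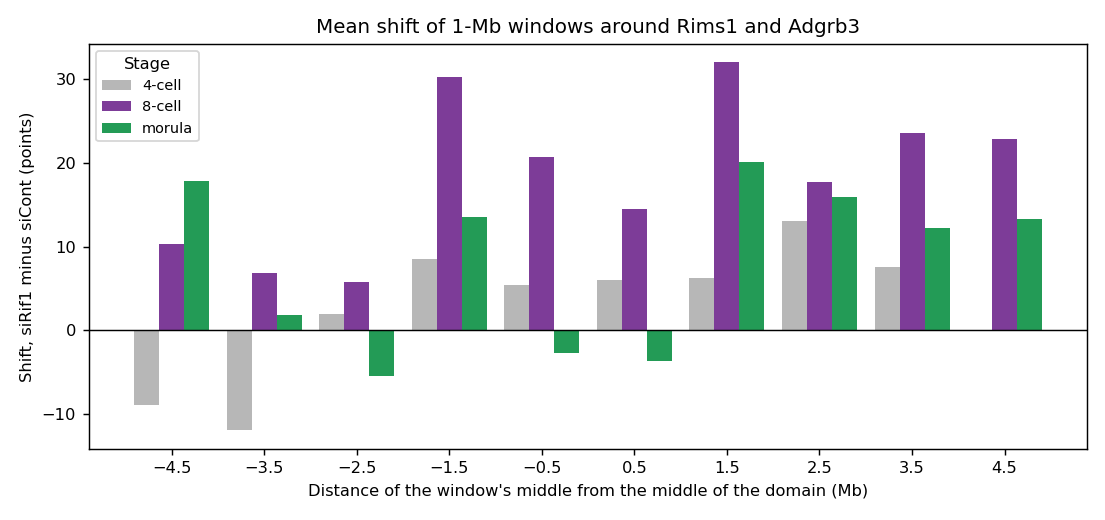
Mean shift (siRif1 minus siCont, points, vertical axis) of the 1-Mb windows from 19 to 29 Mb against the distance of their middle from the middle of the domain (Mb), with grey bars for the 4-cell, purple for the 8-cell and green for the morula stage. Purple bars reach 30.3 points over Rims1 and 32.05 points over Adgrb3, and the morula bars of both central windows lie below 0.

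At the morula stage the flanks were earlier in siRif1 cells and the centre was not. Rims1 had -12.6 points in siRif1 and -27.6 points in siCont cells (shift 15.04 points, positive in 12 of 12 bins). Adgrb3 had -5.39 points in siRif1 and -26.4 points in siCont cells (shift 20.99 points, positive in 16 of 16 bins). The centre had 3.30 points in siRif1 and 6.46 points in siCont cells, a shift of -3.16 points with only 9 of 40 bins positive. Of all 1-Mb windows, 47.8% had positive morula shifts, and neighbouring bins often share states, so these bins are not separate observations. Giving equal weight to 4 classes of S phase position turned the Rims1 morula shift to -1.45 points, in a setting where 1 siRif1 cell carries a class of its own, and left that of Adgrb3 at 13.4 points.

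Morula shifts of 20 points or more were found in 14 of the 80 domain bins, 11 of them in Adgrb3 and none in Rims1 or the centre, against 6.41% of all bins. No domain bin was lower by 20 points or more, against 5.6% of all bins. The highest was chr1:25450001-25500000 in Adgrb3, replicated in 22 of 45 siRif1 cells (48.9%, interval 33.7 to 64.2%) and 8 of 44 siCont cells (18.2%, interval 8.19 to 32.7%). This bin was picked as the highest of the 80. The 21 domain bins of the latest class had a mean morula shift of 18.4 points, against 11.7 points for the whole class. In the next class the 17 domain bins had 16.7 points, against 6.52 points. In the middle class the 27 domain bins had -3.90 points, against -1.92 points, so there the domain lay below its class. The other 15 domain bins had -1.16 points, against -7.22 points.

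In 4-cell embryos the mean shift of the domain was smaller than in 8-cell embryos, while the differences in the share of cells with the domain replicated were close. The domain had 1.23 points in siRif1 and -5.29 points in siCont cells, a shift of 6.53 points that became 1.32 points after both groups were thinned to like S phase positions and 1.15 points with cells weighted equally over S phase. Over 50% of its bins were replicated in 25 of 51 siRif1 cells (49.02%, interval 34.8 to 63.4%) and 15 of 49 siCont cells (30.6%, interval 18.3 to 45.4%), a difference of 18.4 points. The same difference was 19.3 points in 8-cell embryos, with 33 of 50 siRif1 and 28 of 60 siCont cells. Shares of cells are not centred, and the median 4-cell cell had replicated 51.1% of its bins in siRif1 and 42.8% in siCont. Rims1 had -5.20 points in siRif1 and -14.9 points in siCont cells (shift 9.71 points). Adgrb3 had 0.278 points in siRif1 and -4.45 points in siCont cells, a shift of 4.73 points that became -4.10 points when cells were weighted equally over S phase. None of the 80 domain bins was higher or lower by 20 points or more, against 1.36 and 1.24% of all bins. The bin with the highest shift, just beyond the 5′ end of Adgrb3 at chr1:25850001-25900000, was replicated in 26 of 51 siRif1 cells (50.98%, interval 36.6 to 65.2%) and 15 of 49 siCont cells (30.6%, interval 18.3 to 45.4%).

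The early part of the domain was wider in siRif1 than in siCont cells at the 4-cell and 8-cell stages. Its borders were taken as the places where a running median over 5 bins crossed the genome mean, on both sides of the middle of the domain. At the 8-cell stage the early block ran from 20.45 to 26.1 Mb in siRif1 cells (5.65 Mb) and from 23.45 to 24.75 Mb in siCont cells (1.3 Mb). By this rule the siRif1 block took in both genes whole and joined the block that lies near 21 Mb, and neither gene lay in the siCont block. At the 4-cell stage the block ran from 23.2 to 26.15 Mb in siRif1 cells and from 23.8 to 24.55 Mb in siCont cells.

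In morulae the block ran from 23.7 to 24.6 Mb in siRif1 cells (0.9 Mb) and from 23.2 to 25.05 Mb in siCont cells (1.85 Mb). This order depended on the level that defines a border. At the level midway between the lowest and highest value of each group, widths were 2.75 Mb in siRif1 and 2.3 Mb in siCont morula cells. The same rule gave 3.5 Mb in siRif1 and 2.05 Mb in siCont cells at the 8-cell stage. Without smoothing, the siRif1 8-cell block started at 22.2 Mb, next to 1 bin outside Rims1 at -1.02 points.

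The relief within the domain was flatter in siRif1 cells, as was the profile of all autosomal bins at the 8-cell and morula stages. The SD of the share over all used bins was 14.7 points in siRif1 and 19.8 points in siCont cells at the 8-cell stage. It was 17.3 and 25.8 points at the morula stage, and 14.02 and 13.7 points at the 4-cell stage. The smoothed profile from 22 to 26 Mb spanned 24 points in siRif1 and 40 points in siCont cells at the 8-cell stage. It spanned 26.7 points in siRif1 and 47.7 points in siCont cells at the morula stage, and 17.6 points in siRif1 and 22.4 points in siCont cells at the 4-cell stage. The lowest point lay at or near the 3′ end of Rims1, between 22.1 and 22.3 Mb, in 5 groups. In siCont morulae it lay in Adgrb3, at 25.725 Mb.

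Timing changed along the Adgrb3 body in both 8-cell groups. In 8-cell siRif1 cells the 5 bins at the 3′ end of Adgrb3, which face the centre, had 22.98 points, the middle 5 had 17.4 points and the 6 at the 5′ end had 11.3 points. In 8-cell siCont cells they had -9.20, -17.5 and -22.8 points. The shifts of these stretches, 32.2, 34.9 and 34.1 points, were about equal, and the slope across the gene ran the same way in both treatments. At the morula stage the shifts were 9.25 points at the 3′ end, 26.5 points in the middle and 26.1 points at the 5′ end.

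Along Rims1 the 5′ end, which faces the centre, was the earliest in both 8-cell groups. In 8-cell siRif1 cells the 4 bins at the 5′ end had 16.5 points, the middle 4 had 14.5 points and the 4 at the 3′ end had 4.98 points. In siCont cells these were -17.1, -22.95 and -21.7 points, with the lowest value in the middle. Shifts were 33.6, 37.4 and 26.7 points. Along-body differences in 4-cell embryos depended on the gene and group. Values at the 5′ end, middle and 3′ end were 0.196, 0.523 and 0.130 points for Adgrb3 in siRif1 cells. They were -15.9, -12.9 and -15.9 points for Rims1 in siCont cells. The end facing the centre was earliest for Adgrb3 in siCont cells, at -11.8, -2.05 and 2.03 points. It was also earliest for Rims1 in siRif1 cells, at -3.89, -5.36 and -6.34 points.

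Of the 12 protein-coding genes that overlap the domain, all 12 had positive shifts at the 8-cell stage, with a median of 17.2 points. Over all 19428 measured genes the 8-cell median was -7.49 points, with 5476 positive. In morulae 6 of the 12 were positive, against 24.6% of all genes (median -0.431 points, against -7.86 points over all genes). At the 4-cell stage all 12 were, against 40.6% of all genes (median 5.92 points, against -2.23 points).

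Genes near the flanks had larger 8-cell shifts than genes in the middle. Gm20172, a predicted gene inside Adgrb3, had a replicated share of 66% in siRif1 and 35% in siCont cells (shift 37.2 points). Ppp1r14bl, at the Rims1 end of the centre, had 66% in siRif1 and 43.3% in siCont cells (shift 28.8 points). The bin of Mir30a and Mir30c-2 had a shift of 29.2 points. Ogfrl1 had a shift of 23.8 points and Lmbrd1, whose product acts in lysosomal export of cobalamin, one of 20.4 points. B3gat2, a glucuronyltransferase gene, had 14.01 points, and Smap1, which encodes an Arf GTPase-activating protein, had 12.3 points.

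The genes of the middle of the domain had similar uncentred shares in both treatments at the 8-cell stage. Sdhaf4 had 68% in siRif1 and 67.5% in siCont cells (shift 6.68 points). Fam135a had 69.3% in siRif1 and 67.2% in siCont cells (shift 8.29 points). Col9a1, which encodes a chain of cartilage collagen IX, had 68% in siRif1 and 65.6% in siCont cells (shift 8.63 points). Col19a1, another collagen gene, had 64.9% in siRif1 and 60.7% in siCont cells (shift 10.3 points).

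Outside the domain, genes of the early block near 21 Mb went the other way at the morula stage. Tram2, which encodes a protein of the endoplasmic reticulum translocon, had 45.6% in siRif1 and 65.9% in siCont morula cells (shift -20.9 points). Paqr8, a progestin receptor gene, and Tmem14a had morula shifts of -18.6 and -16.5 points. The 8-cell shifts of Tram2, Paqr8 and Tmem14a were -4.65, -0.653 and 0.347 points.

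Between that block and Rims1 lies Kcnq5, a voltage-gated potassium channel gene. Its shifts were 4.79 points at the 4-cell, 10.001 points at the 8-cell and 1.57 points at the morula stage. It is a neuronal gene like Rims1 and reaches to within 1 Mb of it, yet its 8-cell siCont share was 51.4%, against 28.6% for Rims1. The AP-2 transcription factor genes Tfap2d and Tfap2b, near 19 Mb, had morula shifts of 20.1 and 21.2 points and 8-cell shifts of 2.85 and 5.51 points. Pkhd1, the fibrocystin gene of polycystic kidney disease, had shifts of -11.4, 9.04 and 9.93 points at the 4-cell, 8-cell and morula stages. Beyond Adgrb3, 4931408C20Rik and Gm597 had 8-cell shifts of 14.5 and 22.2 points.

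In most single cells of each 8-cell group, Rims1 and Adgrb3 were each replicated whole or not at all. In 8-cell embryos the percent of Rims1 bins replicated in a cell had a median of 66.7 in siRif1 and 0 in siCont cells, and both groups ran between 0 and 100. All Rims1 bins were replicated in 18 of 50 siRif1 and 11 of 60 siCont cells, and none in 14 siRif1 and 35 siCont cells. The Adgrb3 median was 75 in siRif1 and 15.6 in siCont cells, with all bins replicated in 22 siRif1 and 10 siCont cells and none in 13 siRif1 and 27 siCont cells.

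A gene was counted as replicated in a cell where over 50% of its measured bins were. At the 8-cell stage Rims1 was replicated in 28 of 50 siRif1 cells (56%, interval 41.3 to 70.01%) and 16 of 60 siCont cells (26.7%, interval 16.1 to 39.7%). Adgrb3 was replicated in 29 of 50 siRif1 cells (58%, interval 43.2 to 71.8%) and 18 of 60 siCont cells (30%, interval 18.8 to 43.2%). The centre was replicated in 35 of 50 siRif1 cells (70%, interval 55.4 to 82.1%) and 36 of 60 siCont cells (60%, interval 46.5 to 72.4%). The difference was wider for both genes than for the centre, as a description of these cells.

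At the morula stage Rims1 was replicated in 16 of 45 siRif1 cells (35.6%, interval 21.9 to 51.2%) and 8 of 44 siCont cells (18.2%, interval 8.19 to 32.7%). Adgrb3 was replicated in 20 of 45 siRif1 cells (44.4%, interval 29.6 to 60.003%) and 8 of 44 siCont cells (18.2%). The centre was replicated in 23 of 45 siRif1 and 25 of 44 siCont cells. In 4-cell embryos Rims1 was replicated in 23 of 51 siRif1 and 14 of 49 siCont cells, and Adgrb3 in 26 of 51 siRif1 and 20 of 49 siCont cells.

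At the 8-cell stage cells at like positions in S phase differed as well, whereas at the 4-cell stage the difference varied with position. The 8-cell counts are a description, since the interval was chosen on the shift of these cells. Position was measured as the percent of the rest of the autosomes replicated in the cell. No siRif1 cell of the 8-cell stage had over 66.3% of its measured bins replicated, whereas siCont cells reached 97.3%. Among 8-cell cells between 40 and 60%, Rims1 was replicated in 15 of 21 siRif1 cells (71.4%, interval 47.8 to 88.7%) and 5 of 25 siCont cells (20%, interval 6.83 to 40.7%). Adgrb3 was replicated in 15 of 21 siRif1 and 6 of 25 siCont cells (24%, interval 9.36 to 45.1%), and the centre in 17 of 21 siRif1 and 17 of 25 siCont cells. Among cells between 20 and 40%, Rims1 was replicated in 6 of 17 siRif1 and 2 of 17 siCont cells, and Adgrb3 in 6 of 17 siRif1 and 1 of 17 siCont cells. Among 4-cell cells between 40 and 60%, the domain was replicated in 14 of 24 siRif1 cells (58.3%, interval 36.6 to 77.9%) and 2 of 11 siCont cells (18.2%, interval 2.28 to 51.8%). There Rims1 was replicated in 12 siRif1 and 2 siCont cells, and Adgrb3 in 15 siRif1 and 3 siCont cells. Among 4-cell cells between 20 and 40%, Rims1 was replicated in 1 of 12 siRif1 and 4 of 15 siCont cells, and Adgrb3 in 3 of each group. Between 60 and 80%, Rims1 was replicated in 9 of 11 siRif1 and 5 of 13 siCont cells, but Adgrb3 in 7 siRif1 and 10 siCont cells.

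**Figure D3:**
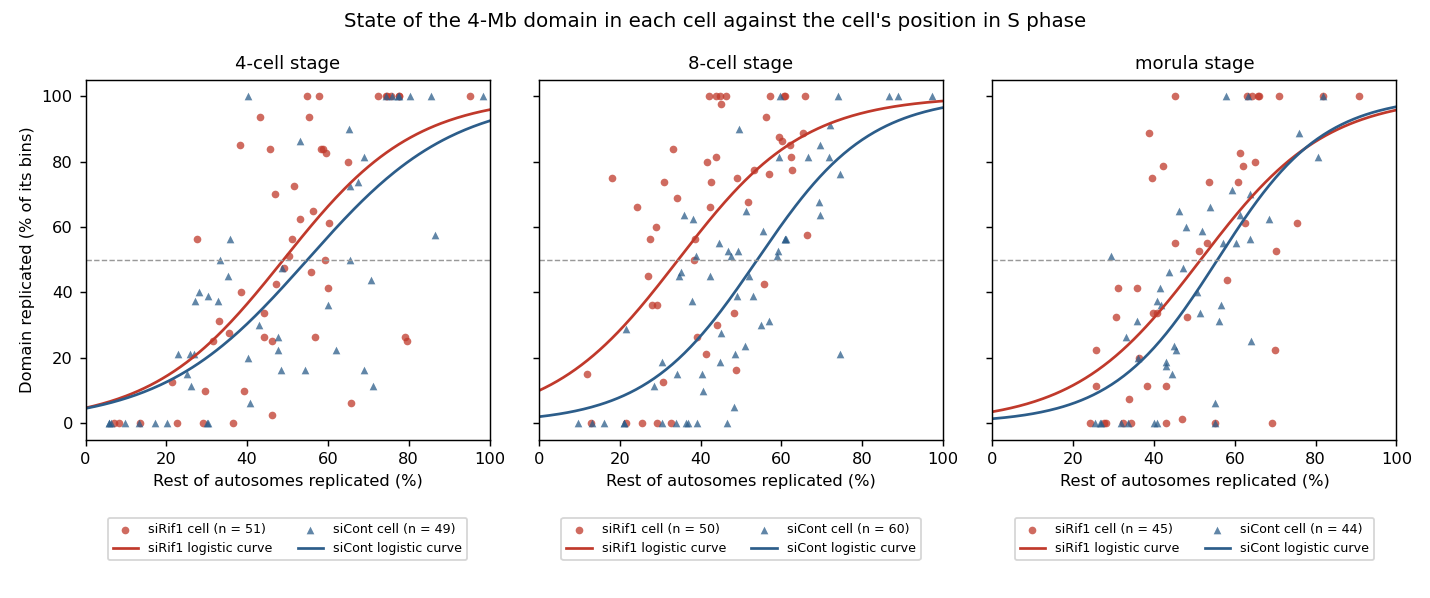
Percent of the domain's bins replicated in each cell (vertical axis) against the percent of the rest of the autosomes replicated in that cell (horizontal axis), with 1 panel per stage; red circles are siRif1 cells, blue triangles siCont cells, lines logistic curves over the cells of a group, and the dashed line 50%. In 8-cell embryos the siRif1 curve crosses 50% at 34.5% and the siCont curve at 54.03%.

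A logistic curve over the cells of a group gave the S phase position at which 50% of a segment was replicated, called its 50% point, and lower values are earlier. At the 8-cell stage the domain's 50% point was 34.5% in siRif1 and 54.03% in siCont cells, a difference of -19.6 points. Rims1 had 38.9% in siRif1 and 63.9% in siCont cells (-25.0 points). Adgrb3 had 36.5% in siRif1 and 62.1% in siCont cells (-25.6 points). The centre had 30.6% in siRif1 and 45.5% in siCont cells (-14.9 points). By this measure, taken from the same cells, the flanks differed more than the centre, and the centre came before both genes in both treatments. The interval was chosen on its 8-cell shifts, so these 8-cell values only describe it.

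In morulae Rims1 had a 50% point of 58.1% in siRif1 and 67.4% in siCont cells, and Adgrb3 53.4% in siRif1 and 63.5% in siCont cells. The centre had 46.7% in siRif1 and 45.5% in siCont cells. At the 4-cell stage Rims1 had 53.8% in siRif1 and 68.1% in siCont cells, Adgrb3 49.8% in siRif1 and 53.6% in siCont cells, and the centre 45.7% in siRif1 and 50.3% in siCont cells. Rims1 was the last of the 3 segments in all 6 groups. The lag of Rims1 behind the centre was 8.12, 8.30 and 11.4 points in siRif1 and 17.8, 18.4 and 21.9 points in siCont cells at the 4-cell, 8-cell and morula stages.

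**Figure D4:**
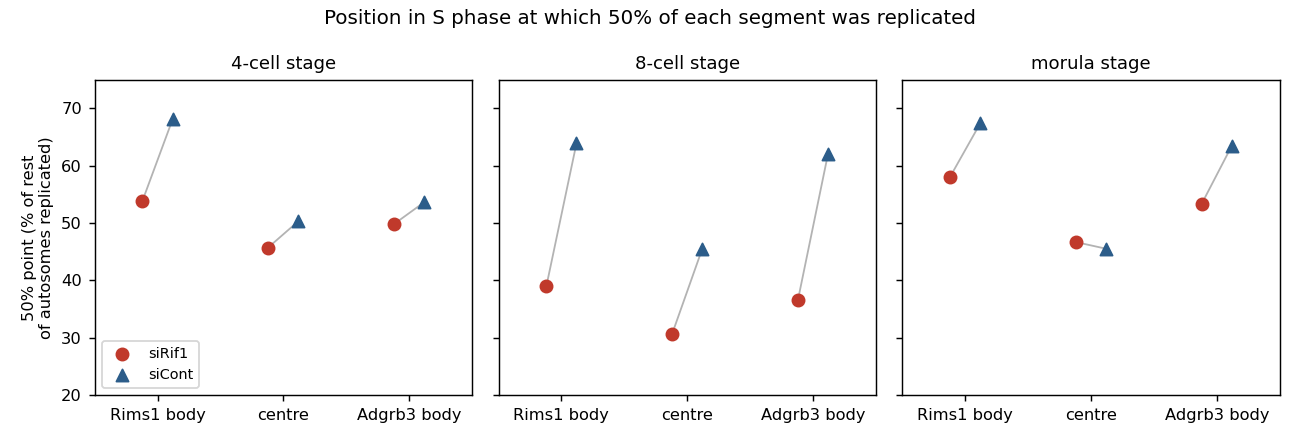
The 50% point of the Rims1 body, the centre and the Adgrb3 body (percent of the rest of the autosomes replicated when 50% of the segment was, vertical axis, which starts at 20) in siRif1 (red circles) and siCont cells (blue triangles), with 1 panel per stage and 1 value per group, so no error bars. Red circles lie below blue triangles for all 3 segments at the 4-cell and 8-cell stages, and for both genes but not the centre at the morula stage.

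Some cells had replicated over 50% of the centre and 50% or less of each gene, so that part of a gene could already be copied. This state was found in 5 of 50 siRif1 cells (10%, interval 3.33 to 21.8%) and 16 of 60 siCont cells (26.7%, interval 16.1 to 39.7%) at the 8-cell stage. At the morula stage it was found in 3 of 45 siRif1 cells (6.67%, interval 1.40 to 18.3%) and 18 of 44 siCont cells (40.9%, interval 26.3 to 56.8%). In 4-cell embryos it was found in 4 of 51 siRif1 and 5 of 49 siCont cells.

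All 3 segments were replicated in 17 of 50 siRif1 cells (34%, interval 21.2 to 48.8%) and 9 of 60 siCont cells (15%, interval 7.10 to 26.6%) at the 8-cell stage. Among 8-cell cells between 30 and 60% of S phase, a range chosen after seeing the data, they were replicated in 12 of 29 siRif1 cells (41.4%, interval 23.52 to 61.1%) and 2 of 38 siCont cells (5.26%, interval 0.644 to 17.7%). In morulae all 3 were replicated in 10 of 45 siRif1 and 5 of 44 siCont cells. Within the same 30 to 60% range this was so in 2 of 24 siRif1 and 1 of 30 siCont morula cells. At the 4-cell stage that range had 6 of 31 siRif1 and 1 of 17 siCont cells in this state.

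Rims1 and Adgrb3 were in the same state in 31 of 45 siRif1 and 40 of 44 siCont morula cells. In 8-cell embryos this was so in 35 of 50 siRif1 and 44 of 60 siCont cells. Such counts depend on how often each gene was replicated. In morulae that was 8 of 44 siCont cells for each gene, against 16 (Rims1) and 20 (Adgrb3) of 45 siRif1 cells. Whether the 2 genes were less coupled in siRif1 cells was not tested. Of the cells that had replicated the centre, both genes were replicated in 17 of 35 siRif1 cells (48.6%, interval 31.4 to 66.01%) and 9 of 36 siCont cells (25%, interval 12.1 to 42.2%) at the 8-cell stage. At the morula stage this was so in 10 of 23 siRif1 and 5 of 25 siCont cells.

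**Figure D5:**
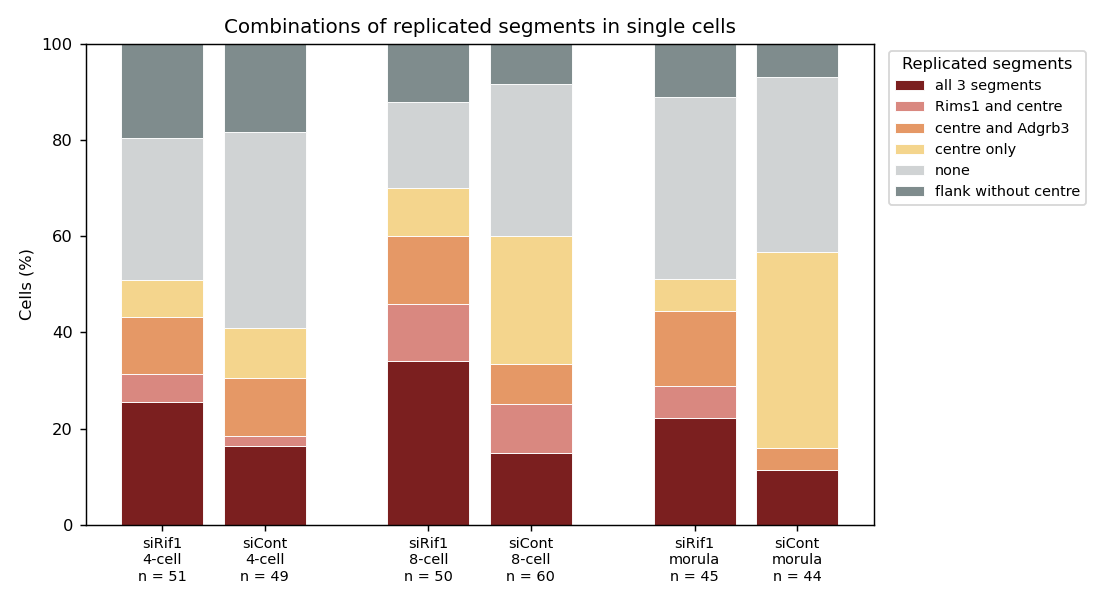
Percent of cells (vertical axis) with each combination of replicated segments (over 50% of the segment's bins) in the 6 groups, siRif1 left of siCont at each stage, with the number of cells under each bar. The yellow part, centre alone, is 10% in siRif1 and 26.7% in siCont cells at the 8-cell stage, and 6.67% in siRif1 and 40.9% in siCont cells at the morula stage.

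The number of state changes per cell differed little at the 8-cell stage. Cells had 4.28 changes between neighbouring bins from 19 to 29 Mb in siRif1 (SD over cells 2.603) and 3.88 in siCont (SD 2.37). A change lay in the outer part of the domain on the Adgrb3 side in 27 of 50 siRif1 and 35 of 60 siCont cells. In morulae a change lay in the outer part on the Rims1 side in 15 of 45 siRif1 and 28 of 44 siCont cells, and on the Adgrb3 side in 18 siRif1 and 22 siCont cells.

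From stage to stage, the gene bodies moved in opposite ways in siRif1 and siCont cells between the 4-cell and 8-cell stages. In siRif1 cells the 8-cell value was above the 4-cell value by 17.2 points for Rims1, 18.2 points for the centre and 16.6 points for Adgrb3. In siCont cells the same differences were -5.68 points for Rims1, 6.28 points for the centre and -12.5 points for Adgrb3. Between the 8-cell and morula stages the siRif1 values fell by 24.55 points for Rims1, 19.6 points for the centre and 22.2 points for Adgrb3, whereas siCont values changed by -7.02, 1.16 and -9.47 points. The early state of the whole domain was seen in 8-cell siRif1 cells and in none of the other 5 groups. In the smoothed profile all 80 bins lay above the genome mean there, against 56 and 22 bins in siRif1 at the 4-cell and morula stages. In siCont it was 22, 26 and 37 bins at the 4-cell, 8-cell and morula stages. The interval was chosen on its 8-cell shifts, so these differences between stages and groups only describe it.

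Among 215 genes of 500 kb or more, Adgrb3 and Rims1 ranked 1 and 2 in 8-cell shift, for which the interval was chosen. The median of these long genes was 4.96 points. In morulae Adgrb3 ranked 11 and Rims1 38 (median 6.66 points), and Rbms3 was highest at 30.9 points. At the 4-cell stage Rims1 ranked 33 and Adgrb3 81, with a median of 2.79 points.

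Among their paralogues at the 8-cell stage, Rims2, Rims3 and Rims4 had shifts of 10.4, -17.5 and -21.3 points, and Adgrb1 and Adgrb2 had -15.8 and -19.3 points. Of 37 genes that act at the presynaptic active zone or with the Adgrb receptors, 11 had positive and 26 negative 8-cell shifts, with a median of -10.3 points. The share positive over all genes was 28.2%, so the count is near that background. Adgrb3 and Rims1 were the highest, and C1ql1, which encodes a C1q-like ligand, and the synaptic vesicle gene Vamp2 were the lowest at -37.5 and -33.9 points. Shifts of 20 points or more were found in 4 of the 37, Rims1 and Adgrb3 among them, against 0.968% of all genes, and of -20 points or less in 7, against 18.0% of all genes. Both members were chosen on this value, and 2 of the other 35 reached it. In morulae 11 were positive, with a median of -6.90 points, against 24.6% of all genes. In 4-cell embryos 15 were, with a median of -3.30 points, against 40.6% of all genes.

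The genes most like Rims1 in timing over the 6 groups were sought among 2287 genes of 100 kb or more outside the region, by root mean square distance between centred shares. They were Adcy8, which encodes an adenylyl cyclase, at 3.44 points, Mctp1 at 4.40 points, Grxcr1 at 4.48 points, Rnf217 at 4.80 points and Nyap2 at 5.88 points. The median distance was 26.4 points, and that of Adgrb3 from Rims1 was 6.19 points. The genes most like Adgrb3 were Tpd52l1 (5.37 points), the calcium channel subunit gene Cacna2d1 (5.44 points), Ptprq (5.64 points), the potassium channel-interacting gene Kcnip4 (5.73 points) and P3h2 (5.92 points). The 8-cell shifts ran from 20.3 points (Mctp1) to 25.9 points (Adcy8) in the Rims1 list and from 15.7 points (P3h2) to 28.2 points (Ptprq) in the Adgrb3 list. Since 8-cell values were part of the distance, like shifts follow from the search.

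Both gene-dense stretches set beside the domain, picked from earlier results for low 8-cell shifts, had 8-cell shifts of the opposite sign. Chromosome 10 from 80 to 82 Mb (32 bins) had shifts of -19.8, -39.6 and -11.3 points at the 4-cell, 8-cell and morula stages, and chromosome 17 from 25 to 28 Mb (60 bins) had 1.007, -33.5 and -21.4 points. The Rims1-Adgrb3 domain had 6.53, 24.4 and 6.83 points.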

How the data were processed

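The authors deposited 1 table per group in which each 50-kb bin of each cell has the state 0, 1 or NA. Tools named, without roles, are R 4.2.3, bedtools, Picard, SAMtools and Bowtie2 2.5.1, with build GRCm38, per the submitters' processing notes. How states were called, the read depth, and why 299 of 416 labelled cells have columns are not given in the sources used here. The state 1 was taken to mean replicated, since it was more frequent in bins with a gene midpoint than in the others in each of the 6 groups. No cells within a group were identical; the closest pair differed at 6.37% of shared bins.

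Shares, shifts, borders and 50% points were computed with Python 3.11.15, numpy 2.4.6, pandas 2.3.3 and scipy 1.17.1, and tested on simulated data. Genes came from RefSeq GRCm38.p6. A gene's value is the mean over used bins overlapping its body. Genes named are those overlapping 22 to 26 Mb, the 8 longest and the 2 highest and 2 lowest of the others between 19 and 29 Mb, the paralogues, the extremes of the 37-gene list and the 5 nearest genes. One gene that meets this rule is not reported here. A microRNA takes the value of its bin.

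Members, lists and segments were chosen with earlier results of these data known, and the centre, the class of long genes and the 30 to 60% range after seeing the data. With 1 sample per group, no test was made. Alternatives were other cells, weights, centring, cell minimums, intervals and border rules.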

Additional observations from a re-analysis of the deposited data

Results flagged for a closer look

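The window from 23 to 24 Mb had shifts of opposite sign at different stages, 20.8 points at the 8-cell, -2.67 points at the morula and 5.38 points at the 4-cell stage. Its morula shift thus differed from the 8-cell shift by -23.5 points and from the 4-cell shift by -8.05 points. The window from 24 to 25 Mb likewise had 14.5, -3.65 and 5.96 points, and its morula shift differed from the 8-cell shift by -18.1 points and from the 4-cell shift by -9.61 points. Each group counts as 1 sample, so these differences between stages were not tested.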

How the results depend on the processing

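The 8-cell shifts kept their sign under all alternatives run, and their counts of cells carry wide counting intervals. Because the interval was chosen on these shifts and the alternatives reuse the same cells, the kept sign supports nothing by itself. As percentile ranks they were 45.97 points for the domain, 56.1 for Rims1 and 59.9 for Adgrb3, on a scale with another unit. With 4 classes of S phase position weighted equally, the morula shift turned to -2.77 points for the domain and -1.45 points for Rims1, and the 4-cell shift of Adgrb3 to -4.10 points. In the morula setting 1 siRif1 and 0 siCont cells made up the class below 25%. In the 8-cell setting 0 siRif1 and 3 siCont cells made up the class above 75%. For the 4-cell value the cause was not tested. Block widths moved by over 1.5 times with a level midway between lowest and highest, to 3.5 Mb in siRif1 and 2.05 Mb in siCont cells at the 8-cell, 2.55 Mb in siCont cells at the 4-cell and 2.75 Mb in siRif1 cells at the morula stage. Without smoothing the siRif1 4-cell block was 1.4 Mb. The 4-cell domain shift fell to 1.32 points after both groups were thinned to like S phase positions and 1.15 points with the equal weights. The other alternative values kept their sign and stayed within a counting interval that is wide for shifts, within 5 points for 50% points or within 1.5 times for widths. Read depth is unknown, and states change only over several bins, so borders are no finer than that. No paired analysis was possible because the results come from no test, and leaving out a replicate does not apply to groups of 1 sample.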
